A study of Homo sapiens with 4 samples.

Results

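The platelet-derived growth factor (PDGF) and fibroblast growth factor (FGF) receptor systems were followed through 10 genes, namely the receptors PDGFRA, PDGFRB, FGFR1, FGFR2, FGFR3 and FGFR4 and the ligands PDGFA, PDGFB, PDGFC and FGF2. They were chosen by symbol, and all 10 had a row among the 60623 genes in the count files. The cells were BICR10, an established head and neck cancer cell line, transduced with lentivirus carrying either a control hairpin (shControl, 2 libraries) or a hairpin against YEATS2 (shYEATS2, 2 libraries), a histone reader, and selected with puromycin. Both groups therefore share the line, the transduction and the selection. The comparison addressed which genes change when YEATS2 is silenced. Neither the labels nor the methods say which of the study's YEATS2 hairpins a library carried. The methods describe replicates of the study in general as independent and biological, but no source says of these libraries that those of a group came from separate cultures. The p-values rest only on the spread between libraries of a group, which the fit pools over all genes.

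PDGFs are secreted dimers that bind the receptor tyrosine kinases PDGFRα and PDGFRβ, which are best known on fibroblasts, pericytes and smooth muscle cells. FGFs bind 4 receptor tyrosine kinases together with heparan sulfate, and the receptors pass the signal through adaptor proteins to the RAS-MAPK and PI3K pathways. MAPK signalling turns on genes of the ETS family and its own inhibitors of the Sprouty and DUSP families. In epithelia FGFR2 and FGFR3 are the usual receptors, whereas FGFR1 prevails in mesenchymal cells.

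In these data the PDGF receptors fell and FGF2 and FGFR1 rose after YEATS2 knockdown. PDGFRA fell to 30.5% and PDGFRB to 65.3% of the shControl level by the fitted fold change, while FGF2 rose 3.46-fold and FGFR1 1.54-fold. The ligands PDGFA and PDGFB were called lower as well, and PDGFC was not called. Of the epithelial-type FGF receptors, FGFR3 was barely expressed and fell, and FGFR2 was at the limit of detection in every library. Of the 9 members with enough counts for a test, 5 were called lower and 2 higher by edgeR's quasi-likelihood test, with p-values adjusted by Benjamini-Hochberg over all genes and a threshold of 0.05. The background was 23.6% lower and 22.6% higher among the 17058 genes tested, so that 7 members of 9 were called where 46.2% of all genes were. With library totals in place of the TMM scaling the members split into 4 lower and 3 higher and all genes into 15% lower and 31.9% higher, and with DESeq2 into 3 and 2 members against 17.3% and 16.5% of genes. PDGFRA, FGFR3 and FGF2, 3 members, were both called and changed at least 2-fold, as were 9.69% of the tested genes. In 8 of the 9 the groups did not overlap, as in 71.6% of the tested genes. Their median log2 fold change was -0.18, against -0.01 over all tested genes. With so large a share of genes called, a call by itself sets no member apart from the rest of the transcriptome.

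The stretches of 250 bases before the RefSeq transcription starts of PDGFRA, PDGFRB and FGF2 are shown because these genes had the 2 receptor falls of the PDGF system and the largest rise. They were read from the RefSeq promoter table (GRCh38.p14), which held PDGFRA, PDGFRB, PDGFA, FGF2, FGFR2, FGFR3 and FGFR4, 7 of the 10 members, with more than 1 start for some. They lie at chr4:54229043-54229292 on the plus strand for PDGFRA, chr5:150155846-150156095 on the minus strand for PDGFRB and chr4:122826581-122826830 on the plus strand for FGF2. They are written 5′ to 3′ with the start following the last base, and capitals mark matches on either strand to the SP1 box GGGCGG, the AP-1 site TGANTCA and the TATA box TATAAA.
PDGFRA: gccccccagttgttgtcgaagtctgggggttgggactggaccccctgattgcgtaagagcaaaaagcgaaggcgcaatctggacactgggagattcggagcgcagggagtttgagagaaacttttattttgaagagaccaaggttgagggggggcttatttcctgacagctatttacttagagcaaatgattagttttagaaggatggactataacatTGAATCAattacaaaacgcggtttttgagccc
PDGFRB: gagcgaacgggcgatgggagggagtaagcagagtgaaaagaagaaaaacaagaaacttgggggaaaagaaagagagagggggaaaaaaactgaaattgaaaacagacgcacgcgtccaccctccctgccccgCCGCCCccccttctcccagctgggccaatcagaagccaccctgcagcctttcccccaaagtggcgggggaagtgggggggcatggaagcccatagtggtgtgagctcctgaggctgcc
FGF2: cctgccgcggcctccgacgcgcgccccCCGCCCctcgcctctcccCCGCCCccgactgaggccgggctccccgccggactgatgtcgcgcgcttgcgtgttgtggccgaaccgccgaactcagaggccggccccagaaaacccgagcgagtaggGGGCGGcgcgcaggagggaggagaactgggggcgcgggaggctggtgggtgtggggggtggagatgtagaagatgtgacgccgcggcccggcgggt
The window of FGF2 held 3 SP1 boxes and that of PDGFRB held 1. The window of PDGFRA held no SP1 box and 1 AP-1 site, but RefSeq lists a second PDGFRA start, whose window at chr4:54233710-54233959 held 2 SP1 boxes, no AP-1 site and a GC content of 64.0%. None of the 3 windows shown held a TATA box. Among the 35093 promoter windows of the same length, 42.6% held at least 1 SP1 box, 6.57% an AP-1 site and 10.7% a TATA box. The windows also differed in base composition, with a GC content of 46.8% for the PDGFRA window shown, 58.4% for PDGFRB and 75.2% for FGF2 against a median of 58% over all windows.

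YEATS2, the targeted gene, had 3000 and 2521 counts with shControl and 741 and 343 counts with shYEATS2. Its level was 66.4 ± 0.411 CPM with shControl and 29.1 ± 0.105 CPM with shYEATS2 (SD, n = 2 each), where CPM are counts scaled to a library of 1000000, with library sizes set by TMM, a scaling that rests on the genes that change least. This was -1.19 in log2 fold change (SE 0.08, adjusted p = 3.6e-21). The total on genes lay between 39824898 and 47297970 counts in shControl and between 11334133 and 24072396 in shYEATS2, so depth and condition cannot be told apart by design, and genes with few counts are measured less precisely in shYEATS2. For any 1 gene an exact two-sided permutation test of 2 libraries against 2 has 0.333 as its smallest p, and the adjusted p-values therefore lean on the spread that edgeR pools over all genes. The label of a head and neck cancer was set against markers. The methods state that cell identity was checked by STR profiling, while the markers were mixed, with a squamous factor near 0 and fibroblast-type collagens high, so the epithelial nature of the sequenced cells is not clear from these counts. KRT8, a simple-epithelial keratin, stood at 266 CPM and SFN at 130 CPM in shControl. KRT6A and KRT5, keratins of the squamous marker list named after their values were seen, stood at 56.5 and 15.7 CPM in shControl. In shYEATS2 they stood at 1.79 and 1.19 CPM. KRT14 and KRT17 of the same list stood at 1.21 and 0.33 CPM in shControl. CDH1, which encodes E-cadherin, stood at 0.335 CPM in shControl. TP63, a squamous transcription factor, had at most 3 counts in any library. Fibroblast markers were high, with COL1A1 at 2793 CPM in shControl. The squamous list summed to 588 to 590 CPM in shControl and to 323 to 347 CPM in shYEATS2. Of its 10 tested genes 7 were called lower, and 1, CDH1, was called higher, at 2.48 CPM in shYEATS2. These were 70% and 10%, against 23.6% and 22.6% of all tested genes. Leukocyte markers summed to at most 1.76 CPM in a library, with no count for CD3E and CD68 and at most 5 for PTPRC, and their 1 tested gene, CD14, was called lower but not with DESeq2, after thinning, without shControl replicate 1 or without shYEATS2 replicate 1. Endothelial markers summed to at most 2.80 CPM, with no count for CLDN5, and 1 of 2 tested genes, TEK, was called higher but lost the call with any 1 library left out (adjusted p = 0.093 to 0.282), with DESeq2 (0.140) and with no filter (0.105).

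PDGFRA (ENSG00000134853, chromosome 4, 54229280 to 54298245, plus strand of GRCh38) encodes the receptor that binds PDGF-AA and PDGF-CC. Its counts were 136 and 93 with shControl and 22 and 9 with shYEATS2, or 3.0 and 2.46 CPM against 0.867 and 0.763 CPM. The groups did not overlap, and the shYEATS2 libraries' exact Poisson intervals (95%, counting error only) of 0.544 to 1.31 CPM and 0.349 to 1.45 CPM did not reach those of the shControl libraries, the lower of which began at 1.98 CPM. On the log2 scale the difference, shYEATS2 minus shControl, came to -1.71 (SE 0.30, adjusted p = 2.4e-06). Its size exceeded that of 96.0% of the tested genes. A transcript model on the same strand, AC058822.1, shares 16.1% of the exon bases of PDGFRA and was counted 0 times in all 4 libraries, and read pairs on shared bases may have gone to neither gene, so the level of PDGFRA may be understated in both groups.
PDGFRB (ENSG00000113721, chromosome 5, 150113839 to 150155872, minus strand) encodes the receptor for PDGF-BB and is a marker of pericytes and fibroblasts. It was measured at 17.8 and 17.6 CPM in shControl and at 11.4 and 11.8 CPM in shYEATS2, from 807, 666, 289 and 139 counts. The libraries of a group lay close together and the groups did not overlap. This gave a log2 fold change of -0.62 (SE 0.11, adjusted p = 3.1e-06). When all libraries were thinned at random to the smallest total, PDGFRB stood at -0.42 and was no longer called (adjusted p = 0.074). PDGFRA was still called. The thinning was not repeated. Per kilobase of the canonical transcript, PDGFRB was the more abundant of the PDGF receptors in every library, by 6.64 and 8.01 times in shControl and by 14.7 and 17.3 times in shYEATS2.
Markers of fibroblasts, the cell type in which both PDGF receptors are typically found, moved with them. Of the 8 genes on that list 7 were tested, and 6 of these, or 85.7%, were called lower and 0 higher. Among all tested genes 23.6% were called lower and 22.6% higher. The median log2 fold change of the list was -1.67, against -0.01 over all tested genes. The list summed to 7434 to 7519 CPM in shControl and to 2274 to 2409 CPM in shYEATS2. In shYEATS2 COL1A1 stood at 890 CPM, COL1A2 at 821 CPM and COL3A1 at 234 CPM. FAP was the tested gene not called, at -0.11, and THY1 had too few counts for a test. In the list of pericyte and smooth muscle markers 3 of 5 tested genes, or 60%, rose and 0 fell, against 22.6% and 23.6% of all tested genes. The 3 included NOTCH3, which went from 207 ± 9.82 to 293 ± 36.6 CPM (SD, n = 2 each). In bulk RNA, fewer cells of a type and less RNA per cell cannot be told apart, and the part of either marker list in the falls of PDGFRA and PDGFRB was not tested.

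**Figure D1:**
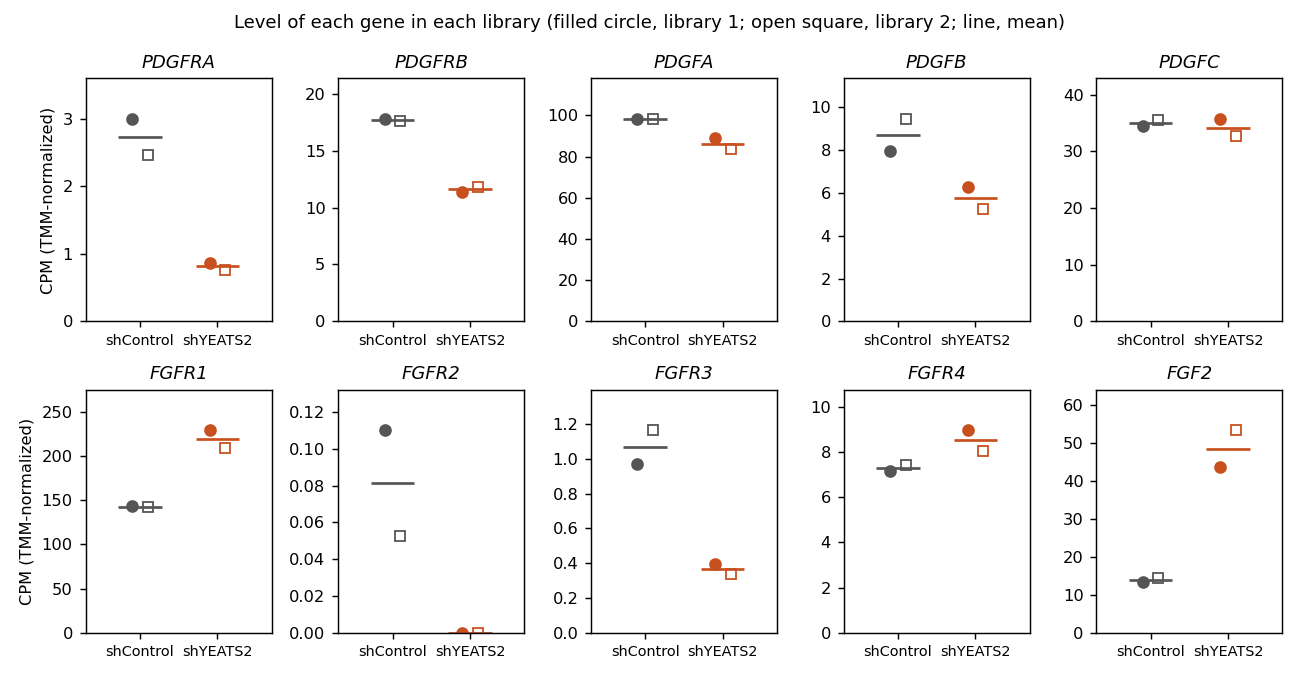
Level of each of the 10 genes in each library, in CPM scaled by TMM on linear axes that start at 0, with the shControl libraries in grey and the shYEATS2 libraries in orange; horizontal lines are means of 2 libraries. PDGFRA, PDGFRB, PDGFA, PDGFB and FGFR3 sit lower in both shYEATS2 libraries, FGFR1 and FGF2 sit higher, and PDGFC overlaps between the groups. FGFR4 also sits higher in both shYEATS2 libraries but was not called. FGFR2, not tested, is at 0 in both shYEATS2 libraries and near 0 in shControl.

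PDGFA (ENSG00000197461, chromosome 7, 497258 to 520296, minus strand), whose chain forms PDGF-AA, was the most abundant ligand, at 98.0 and 98.2 CPM in shControl and 89.1 and 83.5 CPM in shYEATS2. The groups did not overlap, as in 36.3% of the tested genes in this direction, but the difference was small. The fitted log2 fold change, -0.18 (SE 0.07), had an adjusted p of 0.020. It was -0.046 with library totals in place of TMM (adjusted p = 0.579), missed the threshold with DESeq2 (adjusted p = 0.066) and was not called without shControl replicate 1 (adjusted p = 0.138) or without shControl replicate 2 (adjusted p = 0.133).
PDGFB (ENSG00000100311, chromosome 22, 39223359 to 39244982, minus strand) encodes the chain of PDGF-BB, a ligand of both receptors. Its levels were 7.95 and 9.46 CPM in shControl and 6.27 and 5.25 CPM in shYEATS2. The shControl libraries differed by almost as much as separated the groups. In the fit this was -0.56 in log2 units (SE 0.15, adjusted p = 0.0012), and it lost the call without shControl replicate 2 (-0.44, adjusted p = 0.050, just above the threshold) and after thinning (adjusted p = 0.190).
PDGFC (ENSG00000145431, chromosome 4, 156760454 to 156971799, minus strand) encodes a latent ligand that is released by proteolysis and acts mainly on PDGFRα. Its levels of 34.5 and 35.5 CPM in shControl and 35.7 and 32.6 CPM in shYEATS2 overlapped. The log2 fold change was -0.02 with a 95% interval of -0.19 to 0.14 (adjusted p = 0.848).

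Around these ligands and receptors, the list of PDGF processing enzymes and co-receptors had 8 tested genes, of which 3 fell and 4 rose. That was 37.5% and 50%, against 23.6% and 22.6% of all tested genes. FURIN, a protease that processes PDGF chains, fell from 103 ± 4.02 to 60.1 ± 4.85 CPM (SD, n = 2 each), or -0.77 in log2 fold change (SE 0.07, adjusted p = 4.8e-15). LRP1, an endocytic receptor that associates with PDGFRβ, fell from 387 ± 7.20 to 248 ± 20.3 CPM, or -0.64 in log2 fold change. NRP1, a neuropilin co-receptor, rose from 371 ± 8.98 to 512 ± 16.2 CPM, or 0.47 in log2 fold change. The other calls were at lower levels and were picked out after their values were seen. SPARC, a matricellular protein that binds PDGF, fell by 2.27 on the log2 scale. The plasminogen activators PLAU and PLAT, of which PLAT can activate PDGF-CC, rose by 3.11 and 0.88, and PDGFRL rose by 0.41. PDGFD, the remaining PDGF ligand, had at most 6 counts in a library and was not tested.

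FGFR1 (ENSG00000077782, chromosome 8, 38400215 to 38468834, minus strand), which binds FGF2, was the most abundant of the 6 receptors. Its 6520 and 5359 counts with shControl and 5803 and 2459 counts with shYEATS2 came to 144, 142, 229 and 208 CPM. The groups did not overlap, as in 35.2% of the tested genes in this direction. This gave a log2 fold change of 0.62 (SE 0.06, adjusted p = 1.6e-13), and it stayed between 0.53 and 0.75 and called over all 13 alternatives.
FGFR4 (ENSG00000160867, chromosome 5, 177086905 to 177098144, plus strand), best known as the liver receptor for FGF19, came next among the FGF receptors. It stood at 7.16 and 7.43 CPM in shControl and at 8.95 and 8.05 CPM in shYEATS2. Although the groups did not overlap, the log2 fold change of 0.24 had a 95% interval of -0.04 to 0.51 and was not called (adjusted p = 0.155). With library totals alone it was 0.37 and called (adjusted p = 0.024), and after thinning it was 0.033.
FGFR3 (ENSG00000068078, chromosome 4, 1793293 to 1808872, plus strand), a receptor of stratified epithelium and cartilage, had 44 counts in each shControl library and 10 and 4 with shYEATS2, or 0.969 and 1.16 CPM against 0.394 and 0.339 CPM. Their exact Poisson intervals overlapped, since the highest bound in shYEATS2 was 0.868 CPM and the lowest in shControl 0.704 CPM. The fitted log2 fold change, -1.49 (SE 0.47), had an adjusted p of 0.0063. DESeq2 did not call it (adjusted p = 0.077), nor did the fit without shControl replicate 2 (adjusted p = 0.060). After thinning, FGFR3 came to -2.82 in log2 fold change and was called.
FGFR2 (ENSG00000066468, chromosome 10, 121478332 to 121598458, minus strand), the keratinocyte growth factor receptor of epithelia, had 5 and 2 counts in shControl and 0 in both shYEATS2 libraries and was not tested. A count of 0 allows up to 0.118 and 0.254 CPM in these libraries, above the 0.110 and 0.0529 CPM of the shControl libraries, so a difference was not detectable at this depth. ESRP1 and ESRP2, the splicing factors that set the epithelial isoform of FGFR2, had at most 4 and 10 counts in a library, and RBFOX2, which acts on the same exons, was called higher at 170 ± 1.13 and 198 ± 3.17 CPM (SD, n = 2 each), though not without shControl replicate 1 (adjusted p = 0.072) or without shControl replicate 2 (adjusted p = 0.054). The part of the fall in squamous markers in the values of FGFR3 and FGFR2 was not tested.

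FGF2 (ENSG00000138685, chromosome 4, 122826682 to 122898236, plus strand), basic fibroblast growth factor, rose more than FGFR1, the other member called higher. It was counted 601 and 545 times in shControl and 1106 and 628 times in shYEATS2 although the latter libraries were shallower, and its level went from 13.2 and 14.4 CPM to 43.6 and 53.2 CPM. The shYEATS2 libraries differed from each other by 9.61 CPM and lay at least 29.2 CPM above both shControl libraries. In the fit this was 1.79 in log2 units (SE 0.09, adjusted p = 5.7e-25), larger in size than that of 96.4% of the tested genes, and ranged from 1.66 to 1.93 over the alternatives. NUDT6, whose gene runs antisense to FGF2 and shares 11.8% of its exon bases, was called higher as well, from 9.45 ± 0.249 to 12.3 ± 0.106 CPM (SD, n = 2 each), which was 0.38 in log2 fold change (adjusted p = 0.0072). The sources do not give the strand setting of the counting. Of 385 genes that lie wholly inside exons of a gene on the opposite strand with at least 1000 counts, 315 had counts of their own, which counting without strand would have set aside as ambiguous wherever the authors' annotation holds both genes.

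**Figure D2:**
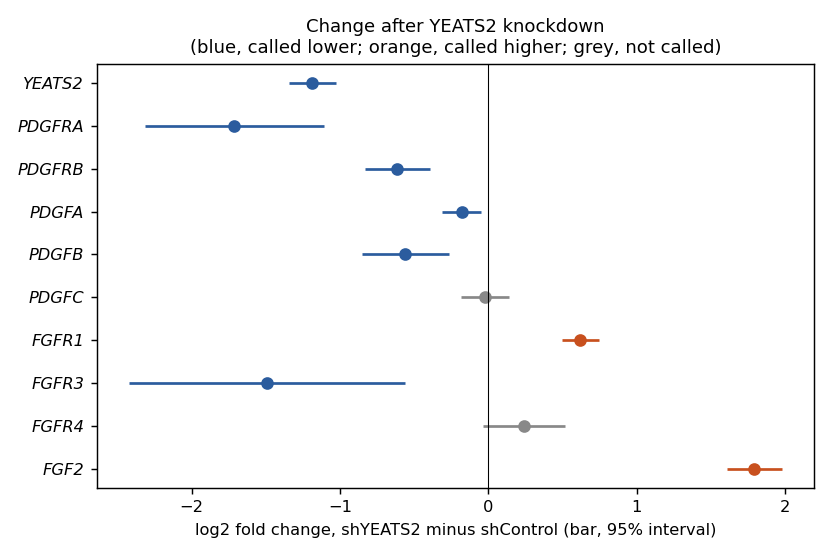
Log2 fold change of YEATS2 and of the 9 tested members, shYEATS2 minus shControl, with 95% intervals from edgeR's quasi-likelihood fit; blue marks genes called lower, orange genes called higher and grey genes not called. The interval of FGF2 lies between 1.61 and 1.98, and that of PDGFRA between -2.32 and -1.11.

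To compare genes with each other, levels were divided by the length of the canonical transcript, as CPM per kilobase. In shControl the order was PDGFA (35.8), FGFR1 (25), PDGFC (7.66), PDGFRB (3.10), FGFR4 (2.36), PDGFB (2.34), FGF2 (2.08), PDGFRA (0.428), FGFR3 (0.248) and FGFR2 (0.0176). FGFR4 (2.31 and 2.40 in the shControl libraries), PDGFB (2.13 and 2.54) and FGF2 (1.99 and 2.17) overlapped or nearly so, and their order is not resolved. Dividing by the summed length of all annotated exons kept the first 4 places and the last 3 in shControl, and moved FGFR4 below PDGFB and FGF2. In shYEATS2 the canonical lengths put FGFR1 (38.4) above PDGFA (31.5) and FGF2 (7.28) beside PDGFC (7.48). The summed exons reversed both orders, with FGFR1 at 12.7 below PDGFA at 18.8 and FGF2 at 7.12 above PDGFC at 5.70, so neither order is resolved. Among the 4 FGF receptors FGFR1 made up 90.8% and 90.3% of the per-length level with shControl and 93.1% and 93.2% with shYEATS2. The PDGF receptors together made up 11.4% and 11.2% of the 6 receptors in shControl and 4.72% and 5.27% in shYEATS2. With summed exon lengths they made up 21.8% and 21.4% and then 9.97% and 11.1%, so the shares depend on the length used. The fall of the share under both lengths follows from the falls of both PDGF receptors and the rise of FGFR1. It is no separate check, since a length is the same in every library. Among the 4 ligands FGF2 went from 4.2% and 4.49% to 13.5% and 17%, and PDGFA from 75.4% and 74.2% to 66.9% and 64.8%. With summed exon lengths the share of FGF2 went from 6.27% and 6.66% to 19.2% and 23.9%. These shares are descriptions without a test.

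**Figure D3:**
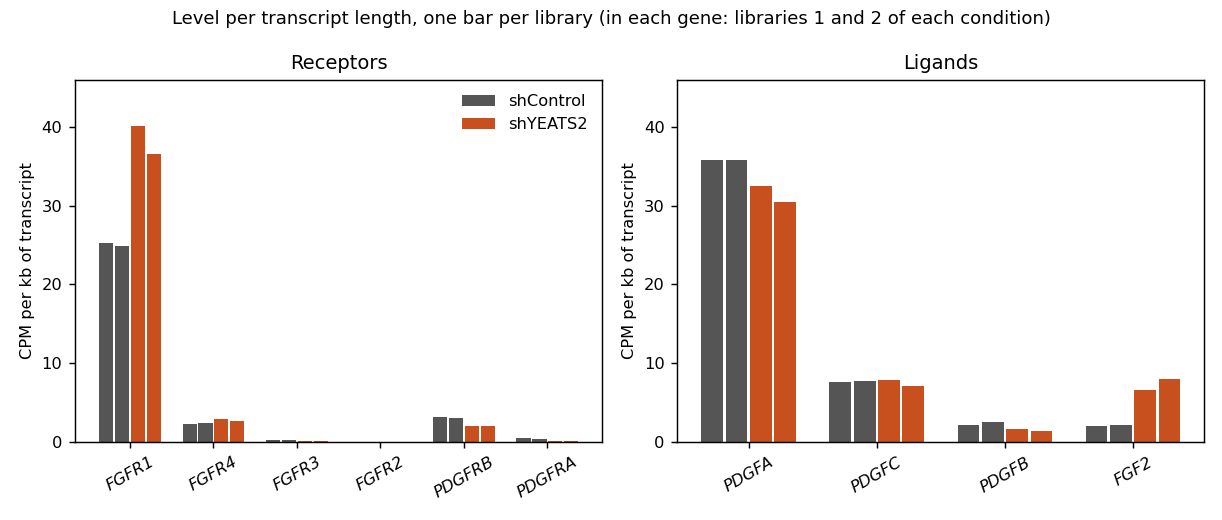
Level per transcript length of the 6 receptors and the 4 ligands, in CPM per kilobase of the canonical transcript, with 1 bar per library (grey, shControl; orange, shYEATS2). FGFR1 is the tallest receptor in every library, and FGF2 rises from about the height of PDGFB to that of PDGFC.

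Other FGF ligands were few. Of 21 genes on that list 5 were tested, 2 were called higher and 0 lower, and 7 had no count in any library. That was 40% and 0% of the tested ones, against 22.6% and 23.6% of all tested genes. The 2 called higher were FGF1, which binds all FGF receptors, and FGF13, an intracellular member of the family that does not act as a ligand. Both were named after their values were seen. FGF1 went from 11 and 4 counts to 54 and 35 counts, and FGF13 from 25 and 19 to 169 and 86. Their log2 fold changes were 3.76 with a standard error of 0.43 and 3.70 with a standard error of 0.25. FGF1 remained far below FGF2, at 2.55 ± 0.592 CPM against 48.4 ± 6.80 CPM in shYEATS2 (SD, n = 2 each). FGF12, another intracellular member, was the only one of the list above 10 CPM in shControl, at 11.9 ± 0.349 CPM, and was not called.
Of the 9 tested genes among the FGF co-receptors and binding proteins, 4 fell and 3 rose, or 44.4% and 33.3%. Among all tested genes 23.6% fell and 22.6% rose by the same call. The heparan sulfate proteoglycans, which hold FGFs at the cell surface and in the matrix, were called in both directions. HSPG2, which encodes perlecan, fell from 238 ± 1.74 to 175 ± 19.1 CPM and GPC1, which encodes glypican-1, from 1123 ± 18.2 to 855 ± 113 CPM, whereas SDC1, which encodes syndecan-1, rose from 34.0 ± 1.51 to 45.3 ± 3.88 CPM (SD, n = 2 each). FLRT3 fell by 0.35 on the log2 scale (adjusted p = 0.0098) and was not called without shControl replicate 2, with DESeq2, after thinning or with library totals alone. The Klotho co-receptor gene KLB and FGFBP1 had no count in any library.

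Downstream of the receptors, the 30 tested genes of signal transduction centred on 0.01 (median log2 fold change), with 6, or 20%, called lower and 8, or 26.7%, called higher. Those shares were close to the 23.6% and 22.6% of all tested genes. PIK3R1, a regulatory subunit of PI3-kinase, had the largest fall of the list, from 163 ± 0.331 to 54.9 ± 7.76 CPM (SD, n = 2 each; log2 fold change -1.59, adjusted p = 2.2e-26). PLCG1, a phospholipase that docks on activated receptors, fell by 0.55 and ARAF by 0.53. PIK3CA, the catalytic partner of PIK3R1, rose by 0.65, and the adaptors CRKL and NCK1 rose by 0.41 and 0.35, the latter not called after thinning (adjusted p = 0.062). The FGF receptor adaptor FRS2 had means of 30.8 and 33.9 CPM in the groups and was not called, nor were GRB2, SHC1 and PTPN11. The number of these genes called higher was 14 with library totals alone and 5 with no filter, without shControl replicate 1 or without shControl replicate 2.
The feedback inhibitors of the pathway were mostly higher, with 7 of 11 tested genes called higher and 1 lower, or 63.6% and 9.09%. Over all tested genes 22.6% were called higher and 23.6% lower. The median log2 fold change of the list was 0.84, against -0.01 over all tested genes. The MAPK phosphatases DUSP4 and DUSP5 rose by 2.09 and 1.96 on the log2 scale. DUSP5 went from 9.56 and 10 CPM to 39.5 and 36.4 CPM. SPRY2, a Sprouty inhibitor, rose from 11.8 and 10.9 CPM to 21.9 and 24.0 CPM, and SPRY4 and DUSP6, 2 genes widely read as FGF targets and named after their values were seen, rose by 2.10 and 1.55. DUSP7 alone was called lower, by 0.38, and lost the call without shControl replicate 2, after thinning and with library totals alone. SPRY1 (log2 fold change -0.003), SPRED1 (-0.09) and SPRY3 (0.24) were not called.
The growth-factor response genes, mostly immediate-early and ETS genes, had 15 tested members, of which 11 were called higher and 0 lower. That was 73.3% and 0%, against 22.6% and 23.6% of all tested genes. Their median log2 fold change was 1.06. PHLDA1 rose from 50.7 ± 0.939 to 178 ± 1.14 CPM, ETV4 from 10.2 ± 0.342 to 31.6 ± 1.22 CPM and ETV5 from 33.4 ± 0.831 to 101 ± 5.55 CPM (SD, n = 2 each), with log2 fold changes of 1.81, 1.64 and 1.60. EGR1 and FOS, the most rapid responders to serum, were not called, at 33.2 and 32.0 CPM and at 2.38 and 1.84 CPM in shControl and shYEATS2. The counts called higher ranged from 6 to 8 for the feedback inhibitors and from 10 to 12 for the response genes over the 13 alternatives, under which 0 to 2 response genes were called lower. The part of FGF2, FGFR1 or any other input in these rises was not tested.

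**Figure D4:**
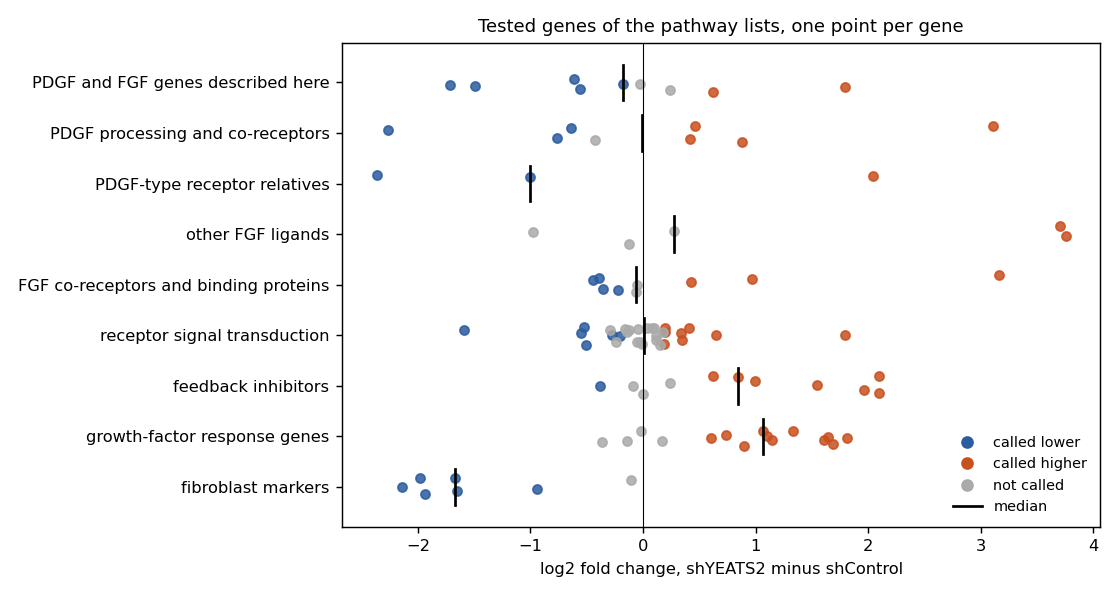
Log2 fold change, shYEATS2 minus shControl, of each tested gene of the pathway lists (1 point per gene; black lines are list medians; blue, called lower; orange, called higher; grey, not called). The feedback inhibitors and the response genes lie mostly to the right, with medians of 0.84 and 1.06, the fibroblast markers to the left, with a median of -1.67, and the signal transduction genes around 0.

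The genes next to the members on the chromosomes were examined because PDGFRA and PDGFRB each sit beside a relative of the same receptor class. CSF1R, the receptor of macrophage colony-stimulating factor, lies 0.467 kb from PDGFRB on the lower-coordinate side, downstream of PDGFRB, which is on the minus strand. CSF1R was counted 37 and 33 times in shControl and 5 and 1 times in shYEATS2, or -2.37 in log2 fold change (SE 0.60, adjusted p = 7.3e-04). KIT, the receptor of stem cell factor, is the nearest tested protein-coding gene on the higher side of PDGFRA, 359 kb away, and moved the opposite way to it, from 40 and 37 counts to 103 and 41 counts, or 2.04 in log2 fold change (SE 0.27). CHIC2, 165 kb away on the other side of PDGFRA, rose as well, from 10.3 ± 0.763 to 20.1 ± 0.650 CPM (SD, n = 2 each). KDR, a further relative in the same receptor list, fell from 34.4 ± 0.950 to 17.2 ± 0.268 CPM. Over all 20 nearest tested protein-coding neighbours, 6 were called lower and 6 higher, and their median log2 fold change was 0.09. The shares over all tested genes were 23.6% lower and 22.6% higher. Beside FGF2, SPATA5 rose by 0.29 and BBS12 was not called. SPATA5 kept its call in 1 of the 4 fits that left out a library (adjusted p up to 0.178) and in 6 of 9 other settings. Beside FGFR1, NSD3 rose by 0.26 and TACC1 by 0.18. NSD3 was not called without shControl replicate 1 (adjusted p = 0.057), nor TACC1 without shControl replicate 1 (0.121), without shControl replicate 2 (0.155) or with no filter (0.144).

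**Figure D5:**
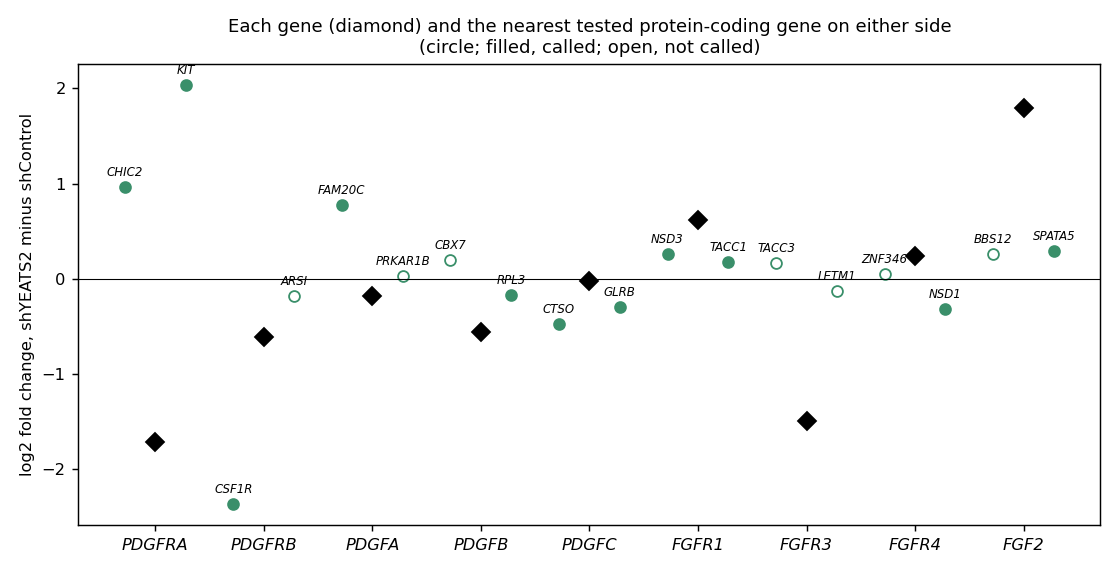
Log2 fold change, shYEATS2 minus shControl, of each tested member (black diamond) and of the nearest tested protein-coding gene on its lower-coordinate (left circle) and higher-coordinate (right circle) side; filled circles were called. CHIC2 and KIT lie above 0 on either side of PDGFRA at -1.71, and FGF2 at 1.79 stands above both of its neighbours.

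Likeness of pattern over the 4 libraries was measured for the most abundant receptor and ligand. The genes nearest to FGFR1 among the 9364 genes averaging 10 CPM or more were FOSL1, GNPDA1 and MEAK7, with a root mean square difference of 0.014 in centred log2 CPM for each. Those nearest to PDGFA were LGALS3, TPST1 and GNA11, with differences of at most 0.0054. With only 4 libraries such likeness is common, and 439 genes lay within 0.1 of FGFR1 and 2762 within 0.1 of PDGFA.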

How the data were processed

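Polyadenylated RNA of BICR10 cells was sequenced from 4 stranded libraries, 2 shControl and 2 shYEATS2. Per the study's methods the authors aligned read pairs to GRCh38 with STAR, counted them per gene with HTSeq and used DESeq2. The deposited values are raw counts per Ensembl gene, without normalization. The annotation release and strand setting are not given in the sources used here. Reads assigned to no gene (15.3% to 16.5% of the tallied pairs) were left out. Counts were filtered with filterByExpr, scaled by TMM and fitted by edgeR 4.0.16 in R 4.3.3 (glmQLFTest after a robust glmQLFit), with Benjamini-Hochberg adjustment over 17058 genes and a threshold of 0.05. On the log2 scale CPM carry a prior count of 2. Positions, lengths and overlaps come from GENCODE 44 on GRCh38 (60295 of 60623 identifiers matched). In 3 simulated draws from the means of these libraries, 200 of 17058 genes were changed each time. On the log2 scale edgeR recovered 46.9% of changes of 0.5, 70.6% of changes of 1 and 90.3% of changes of 2. Of its calls 7.63% were false. Far fewer genes were changed there than the 46.2% called in these data, so these rates need not hold for this fit.

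The members and lists were chosen with earlier results of these data known. Named genes were the members, YEATS2, per pathway list the 3 largest called rises and falls averaging 10 CPM or more, with groups that did not overlap, per marker list the 3 highest and those at 0, the nearest neighbours and the nearest patterns; others are marked in the text or are named by their counts. The replicate numbers gave no sign of pairing, as deviations from the group means correlated at -0.018 between same-numbered libraries. Such a value does not show that the libraries were unpaired. Replicates differed by more than counting noise (chi-square per degree of freedom of 5.95 and 5.39). Alternatives were other scalings (DESeq2 size factors, library totals, upper quartiles), filters, DESeq2 1.42.0, limma-voom (limma 3.58.1), a replicate block, thinned counts and each library left out. The thinning was random and was not repeated, so its values carry the error of the draw. The exon-length alternative was added after the data had been seen.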

Additional observations from a re-analysis of the deposited data

How the results depend on the processing

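FGF2, FGFR1, PDGFRA and YEATS2 kept their direction and their call under every alternative that gave them a value. Library totals in place of TMM shifted all tested genes upward, their median going from -0.01 to 0.13 in log2 fold change. PDGFA (-0.046) then lost its call, FGFR4 (0.37) gained one, PDGFC turned to 0.11, and 2567 genes were called lower, against 4019. With counts thinned to the smallest total PDGFRB (-0.42) and PDGFB (-0.44) lost their calls, and 2446 genes were called lower and 2433 higher. DESeq2 did not call PDGFA (-0.18) or FGFR3 (-1.51). The members called lower numbered 3, in place of 5, with at least 10 counts in every library, with DESeq2 and after thinning. PDGFRA and FGFR3 had too few counts in shYEATS2 replicate 2 for the filter of 10 counts. The cause of the other changes was not tested.

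With a library left out, where the lone library of its group is assumed to vary like the others, the members called lower ranged from 2 to 5, the lowest without shControl replicate 2. The log2 fold changes ranged from -0.25 to -0.14 for PDGFA, from -0.74 to -0.44 for PDGFB, from -1.65 to -1.37 for FGFR3 and from -0.11 to 0.026 for PDGFC. The replicate numbers gave no sign of pairing the libraries (correlation -0.018). A fit with the replicate block called 4142 genes lower and 3870 higher, changed no member's call and gave FGF2 a log2 fold change of 1.80. Among other named genes, none of them called, SFN turned to -0.032 and PRKAR1B to -0.019 with no filter, ARSI to 0.83 after thinning and LETM1 to 0.0098 with library totals. With a library left out SFN ranged from -0.060 to 0.063, PECAM1 from -0.14 to 0.36, ARSI from -0.34 to 0.038, PRKAR1B from -0.10 to 0.11 and ZNF346 from -0.037 to 0.089. The low counts of FGFR2 allowed no test. FGF2 was not the largest change among the members in every fit, since PDGFRA was larger in size with no filter (-1.76 against 1.74) and without replicate 2 of either group, and FGFR3 after thinning (-2.82 against 1.80).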
